A study of Mus musculus with 4 samples.

Results

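Class II high leukaemic marrow cells are the few bone marrow cells of the MLL-AF9 libraries that carried transcripts of the antigen-presenting MHC class II genes without transcripts that mark B cells, plasmacytoid dendritic cells, macrophages or mature neutrophils. A cell was a member when it had 5 or more unique molecular identifiers (UMIs, one for each captured RNA molecule) summed over H2-Aa, H2-Ab1, H2-Eb1 and Cd74, and 0 UMIs of Cd79a, Ebf1, Ms4a1, Siglech, C1qa and Cxcr2. The rule found 587 members among 24955 leukaemia cells that passed the cell filter, and the 4 libraries together held 51611 such cells. The KO MLL-AF9 library held 205 members and the WT MLL-AF9 library 382.

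The study set Rbm5 knockout (KO) against wild-type (WT) mouse marrow by droplet single-cell RNA sequencing, to ask whether this RNA-binding splicing factor controls the MLL-fusion gene programme. The 4 groups were KO MLL-AF9 leukaemia, WT MLL-AF9 leukaemia, KO c-Kit+ marrow cells and WT c-Kit+ marrow cells, with 1 library each. The leukaemias carried the MLL-AF9 fusion oncogene and were taken at the same endpoint after primary transplantation, while c-Kit+ cells are normal stem and progenitor cells. Strain, age, the promoter driving the fusion, the deleted Rbm5 exons and the number of animals per library are not given in the sources used here, and marrow cells of the transplanted host were not told apart from leukaemia cells by any label. With 1 library per group no test was possible, and every interval below is a 95% interval for counting error alone.

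Rbm5 itself was still counted in the libraries labelled KO. It stood at 107 CPM (UMIs of the gene per 1000000 UMIs of the cells summed) in class II high cells of the KO MLL-AF9 library and 162 CPM in those of the WT MLL-AF9 library, a ratio of 0.664 (0.547 to 0.802). In class II high c-Kit+ cells it stood at 98.3 CPM in KO and 77.1 CPM in WT. Transcript outside the deleted part would still be counted, so these levels check no label, and KO and WT below name the labels.

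MHC class II molecules are pairs of an alpha and a beta chain that display peptides from engulfed proteins to CD4 T cells. H2-Aa and H2-Ab1 encode the chains of one mouse class II molecule, H2-Eb1 encodes a beta chain of another, and Cd74 encodes the invariant chain that guards the peptide groove until loading. In marrow these genes are strongly expressed by dendritic cells and B cells and can be induced in monocytes. Their transcription depends on the coactivator Ciita, which docks on factors bound to the X and Y boxes of class II promoters. MLL fusion proteins hold the transcription factor genes Meis1 and Hoxa9 switched on in myeloid leukaemia, while both genes are normally silenced as myeloid cells mature. On GRCm38, Meis1 lies at chr11:18879817-19018985, Hoxa9 at chr6:52223100-52231089 and Ciita at chr16:10480059-10528418.

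The promoters of 2 genes of the rule show the boxes that class II genes share. The 150 bases before each start site are given 5′ to 3′ on the gene's own strand, from RefSeq on GRCm38.p6, with capitals marking the X box core GCAAC and the Y box CTGATTGG. H2-Aa lies at chr17:34287824-34287973 on the minus strand and H2-Eb1 at chr17:34305717-34305866 on the plus strand.
H2-Aa: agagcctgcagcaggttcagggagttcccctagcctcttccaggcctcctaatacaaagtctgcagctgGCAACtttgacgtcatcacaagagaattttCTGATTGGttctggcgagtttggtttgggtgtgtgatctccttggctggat
H2-Eb1: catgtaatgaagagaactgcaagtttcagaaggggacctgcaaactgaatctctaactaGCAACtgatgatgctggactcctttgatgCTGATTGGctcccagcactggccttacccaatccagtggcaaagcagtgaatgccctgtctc
The Y box began 51 bases before the start of H2-Aa and 62 before that of H2-Eb1, with 25 and 24 bases between the boxes. Searched on both strands, CTGATTGG was found in 3.16% of 32851 promoter windows of the same length, GCAAC in 19.6% and both in 0.654%. Of the other class II genes, H2-Oa and H2-Eb2 held the Y box letters in this window, and H2-DMa, H2-DMb1, H2-DMb2 and H2-Ob did not, which says nothing about the factor. H2-Ab1 and Ciita are named only.

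Members made up 1.74% (1.51% to 1.99%) of 11778 filtered KO MLL-AF9 cells and 2.90% (2.62% to 3.20%) of 13177 filtered WT MLL-AF9 cells. Depth bears on such a count: members had a median of 7058 UMIs in KO and 4312.5 UMIs in WT, against 7433 UMIs in the other KO cells and 6038 UMIs in the other WT cells. With every cell thinned to 2000 UMIs before the rule was applied, the share was 0.932% in KO and 2.67% in WT. The total UMI counts of the leukaemia libraries were 102884646 for KO and 94122777 for WT. Mitochondrial UMIs made up 1.12% and 0.986% in KO and WT members, against 0.855% and 1.02% in the other KO and WT cells. In the c-Kit+ libraries the same rule kept 284 cells (2.07%) of KO and 147 cells (1.14%) of WT.

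The exclusion genes took out far fewer class II positive cells of the leukaemias than of c-Kit+ marrow. They removed 27 of 232 cells with 5 or more class II UMIs in the KO leukaemia and 126 of 508 in the WT leukaemia, against 1157 of 1441 in KO c-Kit+ and 1180 of 1327 in WT c-Kit+. The B cell genes led the removals: Cd79a was present in 15 KO and 66 WT leukaemia cells so removed, and Ebf1 in 8 and 69. The KO and WT leukaemia libraries shared 46 cell barcodes, and 1 member of each library had one, but no barcode was a member in both. Scrublet called 6.34% of KO members and 8.12% of WT members doublets, against 3.10% of the other KO cells and 2.95% of the other WT cells. They were kept, and results without them are given where they matter.

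The class II transcripts that chose the cells differed widely among members, and are given as a description. A member carried a median of 19 class II UMIs in KO, with a range of 5 to 631, and of 80.5 in WT, with a range of 5 to 422. Cells with 50 or more made up 68 members (33.2%) of KO and 224 (58.6%) of WT, while 74 KO members and 60 WT members had only 5 to 9. All 4 genes were seen together in 43.4% of KO members and 72.0% of WT members. At the other end, 60 KO members and 26 WT members were chosen on Cd74 alone, with no UMI of an H2 gene.

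Summed over members, H2-Aa stood at 2419 CPM in KO and 5962 CPM in WT, H2-Ab1 at 1298 CPM and 3024 CPM, H2-Eb1 at 1432 CPM and 3647 CPM, and Cd74 at 4832 CPM and 8109 CPM. These sums follow the mix of class II levels among members: in those with 50 or more class II UMIs, Cd74 stood at 12639 CPM in KO and 11702 CPM in WT, and H2-Aa at 7296 CPM in KO and 9165 CPM in WT. In the other cells the 4 genes together gave 35.9 CPM in KO and 118 CPM in WT, against 9981 CPM in KO members and 20742 CPM in WT members. Around the threshold, 35 KO and 14 WT members had exactly 5 UMIs, and 42 KO and 23 WT cells had 4 and were left out. At full depth, without thinning, Meis1 was detected in 62.9% of those KO members and 57.1% of the KO cells left out. In WT it was detected in 64.3% of those members and 69.6% of the cells left out.

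**Figure D1:**
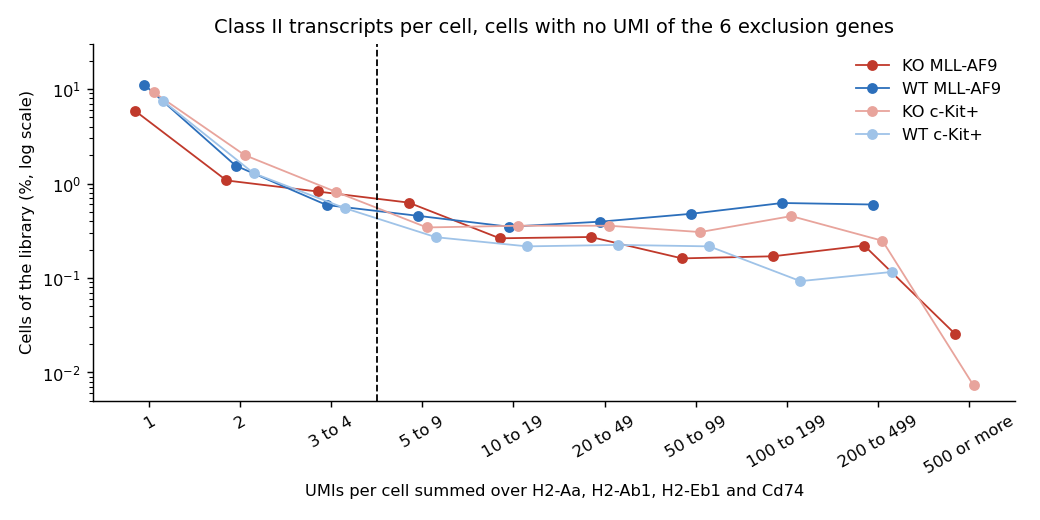
Share of filtered cells of each library (log scale, percent) by UMIs per cell summed over H2-Aa, H2-Ab1, H2-Eb1 and Cd74, among cells with no UMI of the 6 exclusion genes; the dashed line marks the minimum of 5, cells with none are not drawn, and a share of 0 has no point. WT MLL-AF9 has 224 members at 50 or more class II UMIs and lies above KO MLL-AF9 from 10 to 499, while KO MLL-AF9 lies above it from 3 to 9.

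Class II high cells of both leukaemias carried Meis1, a homeobox transcription factor and partner of Hoxa9. It stood at 290 CPM in KO members and 457 CPM in WT members, against 347 CPM in the other KO cells and 511 CPM in the other WT cells. After thinning to 2000 UMIs, which left out 8 KO and 18 WT members, Meis1 was detected in 36.0% (29.3% to 43.2%) of 197 KO members and 52.2% (46.9% to 57.4%) of 364 WT members. The other cells had it in 43.0% of KO and 58.4% of WT, so members stood below the other cells, with overlapping intervals in KO and barely separate ones in WT. Unthinned, the shares were 71.2% of KO members and 74.9% of WT members.

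Cells that should lack the gene give the background to read this against. T and NK cells of the same libraries had Meis1 in 7.14% (3.13% to 13.6%) of KO and 15.9% (9.72% to 24.0%) of WT cells after thinning, at unthinned median depths of 6288 and 4858 UMIs. Scrublet called 14.7% of these KO and 16.2% of these WT cells doublets, and how far free RNA or doublets give their Meis1 was not tested. Erythroid cells had it in 6.93% of KO and 10% of WT. B cells, only 12 in KO and 62 in WT, had it in 16.7% and 12.5%. The Meis1 share of members lay above both sets in each library, with intervals that did not overlap those of the T and NK cells. With doublets removed it was 34.8% in KO and 50.8% in WT.

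Hoxa9, the homeobox factor that MLL fusions keep expressed, was also found in members, but at shallow depth the KO share did not separate from background. It stood at 68.2 CPM in KO members and 155 CPM in WT members, against 106 CPM and 174 CPM in the other KO and WT cells. After thinning it was detected in 10.2% (6.31% to 15.2%) of KO members and 23.4% (19.1% to 28.0%) of WT members, against 18.4% of the other KO cells and 27.1% of the other WT cells. T and NK cells had it in 5.36% (1.99% to 11.3%) of KO and 6.19% (2.53% to 12.3%) of WT. The WT share lay above the background interval, while the KO interval overlapped it, and overlapped that of KO erythroid cells at 6.49% (3.68% to 10.5%). At full depth Hoxa9 was in 37.1% (30.4% to 44.1%) of KO members, against 13.8% (8.09% to 21.4%) of KO T and NK cells. KO erythroid cells, deeper at a median of 10079 UMIs, had it in 24.9% (19.5% to 31.0%) at full depth, an interval that still overlapped that of members.

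Both genes were seen in the same thinned cell in 2.03% of KO members and 13.7% of WT members, against 8.74% of the other KO cells and 16.9% of the other WT cells. At full depth, cells with no UMI of Meis1, Hoxa9 or Mecom, a zinc finger factor of stem cells that MLL leukaemias can express, made up 7.32% of KO members and 5.24% of WT members. Among T and NK cells the same 3 genes were all missing in 67.2% of KO and 65.0% of WT cells. Most members of either leukaemia therefore held a transcript of at least 1 of the 3, background included.

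**Figure D2:**
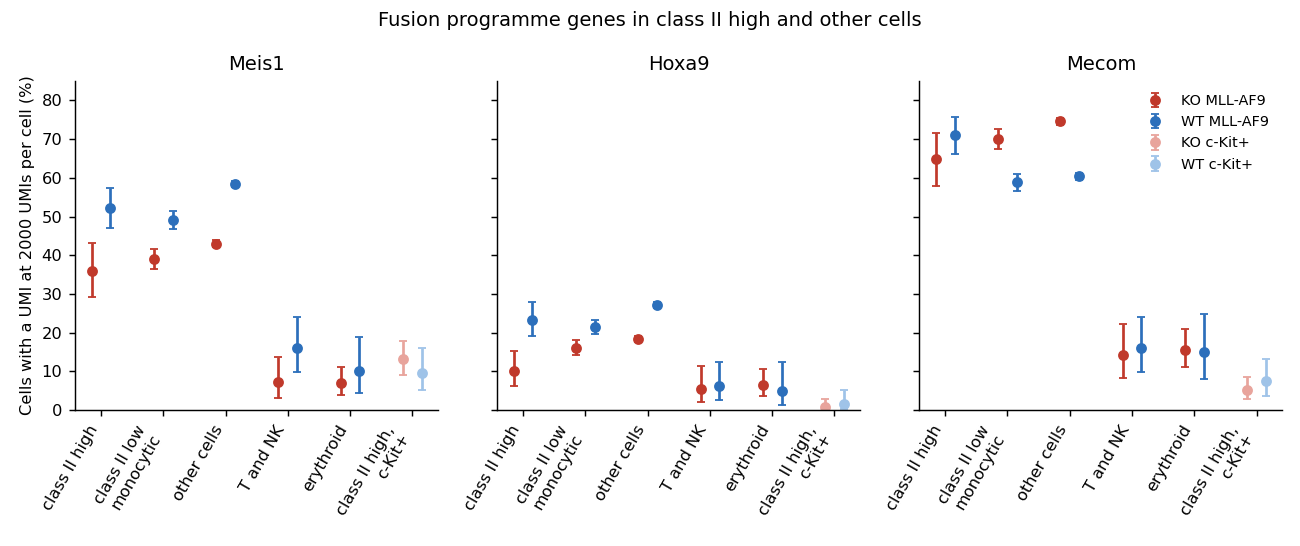
Share of cells with a UMI of Meis1, Hoxa9 or Mecom after thinning to 2000 UMIs per cell (percent; bars are 95% Clopper-Pearson intervals, counting error only), for class II high cells and comparison sets of the KO and WT MLL-AF9 libraries and for class II high c-Kit+ cells. Members sit near the class II low monocytic and other cells for Meis1. For Mecom, KO members are at 65.0%, against 70.1% of class II low monocytic and 74.6% of other cells. WT members are at 71.2%, against 58.9% and 60.4%. For both genes members lie above T and NK, erythroid and c-Kit+ class II high cells. The Hoxa9 interval of KO members overlaps those of T and NK cells and of erythroid cells.

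Normal class II high cells gave the second comparison. Meis1 was in 13.1% (9.19% to 17.9%) of KO and 9.70% (5.27% to 16.0%) of WT class II high c-Kit+ cells after thinning, and Hoxa9 in 0.794% and 1.49%. The contrast was sharpest in cells with 50 or more class II UMIs, a cutoff chosen after seeing the data. There Meis1 stood at 379 CPM in KO leukaemia against 37.1 CPM in KO c-Kit+, a ratio of 10.2 (6.98 to 15.3), and at 469 CPM in WT leukaemia against 19.7 CPM in WT c-Kit+, a ratio of 23.8 (11.5 to 59.6). These are cells of different libraries, and library and group cannot be told apart.

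Hoxa9 in these cells stood at 77.0 CPM in KO leukaemia, while KO c-Kit+ had 1 UMI, a ratio of 66.3 (11.2 to 2688). In WT it stood at 146 CPM in leukaemia and had no UMI in c-Kit+, at least 17.3-fold higher when set against a floor of 3 UMIs over the c-Kit+ cells. After thinning, a Hoxa9 UMI was seen in 0 of 138 KO c-Kit+ cells and 0 of 55 WT c-Kit+ cells. A floor of 3 counts puts the share of cells with a UMI at that depth at up to 2.17% and 5.45%, which does not limit the share that express the gene. Mecom stood at 1199 CPM in KO leukaemia against 9.29 CPM in KO c-Kit+, and at 1275 CPM in WT leukaemia, at least 151-fold above the floor of WT c-Kit+. The 5 to 9 UMI cells of c-Kit+ marrow were less distinct, with Meis1 in 32.5% of KO and 21.2% of WT cells after thinning.

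Within the leukaemias Meis1 was present at every class II level. After thinning it was in 31.1%, 32.1% and 44.8% of KO members with 5 to 9, 10 to 49 and 50 or more class II UMIs, and in 46.0%, 47.3% and 55.6% of WT members of those classes. The intervals of the lowest and highest classes overlapped in both libraries. Members chosen on Cd74 alone had Meis1 in 33.3% of KO and 50% of WT cells, beside 37.2% and 52.4% of KO and WT members with an H2 gene UMI. Members with a UMI of Flt3, the receptor of a growth factor that dendritic precursors need, had Meis1 in 43.6% of KO and 62.7% (55.0% to 70.0%) of WT cells. Members without one had it in 33.1% of KO and 43.1% (36.0% to 50.3%) of WT cells, so the intervals were apart in WT and overlapped in KO. Flt3 is itself counted more often in deeper cells, although median depths were close, at 6936 against 7161.5 UMIs in KO and 4405 against 4301 UMIs in WT. By CPM, KO members chosen on Cd74 alone stood below those with an H2 gene UMI, with separate intervals. Hoxa9 was at 41.3 CPM against 80.9 CPM, Mecom at 670 CPM against 1160 CPM and Flt3 at 17.7 CPM against 75.4 CPM. The thinned Hoxa9 shares of these KO cells overlapped, at 8.33% and 10.9%. In WT the Mecom levels were apart, at 726 CPM and 1229 CPM, while Hoxa9 and Flt3 overlapped.

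**Figure D3:**
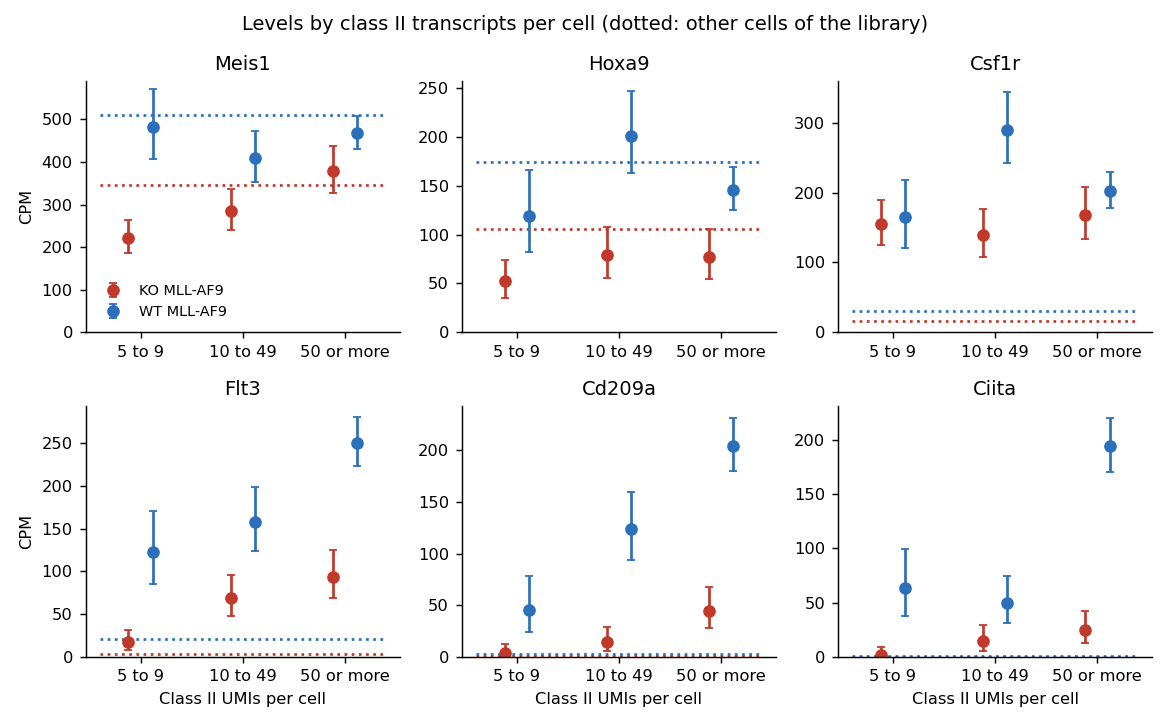
CPM of Meis1, Hoxa9, Csf1r, Flt3, Cd209a and Ciita in KO and WT MLL-AF9 members by class II UMIs per cell (bars are exact 95% Poisson intervals for counting error; dotted lines are the other cells of the library). Meis1 and Hoxa9 mostly lie at or below the other cells, above them for Meis1 in KO members at 50 or more and Hoxa9 in WT members at 10 to 49, Csf1r lies above it in all 3 classes, and Flt3, Cd209a and Ciita are highest at 50 or more class II UMIs, with the WT values above the KO values.

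Other genes of the MLL-fusion programme were carried as well. Of 22 listed genes, 15 in KO and 17 in WT were measured, that is, the mean level over members and other cells reached 20 CPM. In KO 0 of the 15 were 2-fold or more higher in members and 1 was lower, with a median log2 ratio of −0.49, where 13.4% of 5936 genes were higher, 9.01% lower and the median was 0.09. In WT 0 of 17 were higher and 4 lower, with a median of −0.17, where 10.5% of 6591 genes were higher, 8.3% lower and the median was −0.00. Genes under that level were not counted, and a gene that reached it through 1 set of cells alone had to differ.

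Mecom stood at 1003 CPM in KO members and 1196 CPM in WT members, against 1222 CPM and 950 CPM in the other KO and WT cells. Pbx3, a further homeobox partner of Hoxa9, stood at 178 CPM in KO members against 251 CPM in other KO cells, and at 1123 CPM in WT members against 993 CPM in other WT cells. Mef2c, a myeloid and lymphoid transcription factor, stood at 1251 CPM and 1272 CPM in KO and WT members. The genes past 2-fold lower were Myb in KO and Cbx5, Hmga2, Kit and Myb in WT. Myb, a factor of progenitor self-renewal, was at 41.0 CPM in KO members against 147 CPM in other KO cells, and at 115 CPM in WT members against 318 CPM in other WT cells. Kit, the stem cell factor receptor, was at 18.3 CPM in KO members against 28.6 CPM in other KO cells, and at 29.1 CPM in WT members against 62.0 CPM in other WT cells. At full depth Cd34, a progenitor surface protein, had a UMI in 0 of 205 KO members, and it stood at 7.15 CPM in WT members. A floor of 3 counts allows a UMI in up to 1.46% of KO members at this depth.

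Against class II high c-Kit+ cells the programme split both ways in KO and was mostly higher in WT leukaemia. In KO members 7 of 13 measured genes were 2-fold or more higher and 4 lower, where 9.72% of 6381 genes were higher and 13% lower. In WT 11 of 16 were higher and 1 lower, where 9.84% of 6595 genes were higher and 8.98% lower. The 7 higher in KO were Eya1, Hoxa7, Hoxa9, Mecom, Mef2c, Meis1 and Pbx3, and all 7 were also among the 11 higher in WT. Hoxa9, at 68.2 CPM in KO members and 11.2 CPM in KO c-Kit+ cells, reached the level for counting only through the members, so it had to differ. In WT the same held for Hoxa9, at 155 CPM against 7.22 CPM, and Hoxa7, at 54.6 CPM against 6.02 CPM.

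The machinery that loads class II molecules stood high together with the genes of the rule. Of 18 listed genes, 8 of 10 measured in KO and 12 of 13 measured in WT were 2-fold or more higher in members, and none was lower. Among all measured genes 13.4% were higher and 9.01% lower in KO, and 10.5% higher and 8.3% lower in WT. Members were themselves chosen on class II transcripts. In WT, Ciita (141 CPM against 1.12 CPM) and H2-DMb2 (52.6 CPM against 6.81 CPM) reached the level for counting only through the members, so they had to differ. H2-DMa, a chain of the peptide-loading catalyst, stood at 246 CPM in KO members against 24.3 CPM in other KO cells, and at 438 CPM in WT members against 69.1 CPM in other WT cells. Its partner H2-DMb1 stood at 184 CPM and 304 CPM in KO and WT members. Ctss, the protease that trims the invariant chain, stood at 1065 CPM in KO members and 1272 CPM in WT members, 13.9-fold (13.2 to 14.7) and 9.53-fold (9.13 to 9.95) above the other cells. Ifi30, a lysosomal thiol reductase of antigen processing, and Lgmn, an endosomal protease, were 10.9-fold and 22.3-fold higher in KO members and 7.45-fold and 12.7-fold higher in WT members. Rfxap, a subunit of the factor that binds the X box, was near level, at 28.4 CPM and 33.2 CPM in KO and WT members against 32.1 CPM and 33.3 CPM in other cells.

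Monocyte genes were high almost throughout. In each library 8 of 9 listed monocyte genes were 2-fold or more higher in members and none was lower, with median log2 ratios of 2.88 in KO and 2.54 in WT. Over all measured genes, 13.4% of 5936 were higher in KO members and 10.5% of 6591 in WT members. Csf1r, the receptor for macrophage colony-stimulating factor, stood at 154 CPM in KO members against 15.3 CPM in other KO cells, and at 217 CPM in WT members against 30.1 CPM in other WT cells. Ccr2, the chemokine receptor that draws monocytes out of marrow, was 8.98-fold (8.15 to 9.88) higher in KO members and 7.89-fold (7.34 to 8.48) in WT members. Ly6c2, a surface marker of inflammatory monocytes, was the exception, at 638 CPM in KO members against 575 CPM in other KO cells and at 741 CPM in WT members against 1216 CPM in other WT cells.

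Dendritic cell genes were mixed. Cd209a, a lectin of monocyte-related dendritic cells and of the conventional type 2 subset (cDC2), was 69.7-fold higher in KO members and 71.7-fold in WT members, at 19.6 CPM and 162 CPM. Flt3 stood at 56.8 CPM in KO members against 3.27 CPM in other KO cells, and at 210 CPM in WT members against 20.5 CPM in other WT cells. Clec10a, another lectin of cDC2, stood at 53.0 CPM and 41.9 CPM in KO and WT members, against 3.22 CPM and 4.45 CPM in other cells. Clec10a, and Cd209a in WT, reached the level for counting only through the members, so they had to differ, and Cd209a in KO did not reach it.

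The genes that define the type 1 subset (cDC1) were near 0: Xcr1 stood at 0.632 CPM in KO members and 0 in WT members, Clec9a at 7.58 CPM and 4.59 CPM, and Tlr3 at 0 and 0.510 CPM. Irf8, which monocytes and cDC1 share, was the highest gene of that list, at 176 CPM and 191 CPM. Zbtb46, a factor that marks conventional dendritic cells, stood at 5.68 CPM in KO members and 1.53 CPM in WT members, against 32.4 CPM and 26.5 CPM in KO and WT class II high c-Kit+ cells. Itgax, listed with Zbtb46 and Flt3, stood at 8.21 CPM and 42.9 CPM in KO and WT members, against 0.622 CPM and 1.04 CPM in other cells. KO and WT class II high c-Kit+ cells had Itgax at 28.5 CPM and 27.7 CPM. In WT, Itgax reached the level for counting only through the members, and in KO it did not reach it. Ccr7, the receptor of migratory dendritic cells, stood at 0.632 CPM and 1.02 CPM. The marker lists give the members monocyte genes with some cDC2 genes and some genes shared by conventional dendritic cells. No dendritic or monocyte name was assigned from them.

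Of the markers of other lineages, the T and NK and erythroid sums were lower in members than in other cells, while the B cell and macrophage sums were higher. The 10 T and NK cell markers summed to 104 CPM in KO members and 65.3 CPM in WT members, with Cd3d at 0 in KO, Cd3e, Ncr1 and Gzma at 0 in WT and Gzma at 20.8 CPM in KO, against 173 CPM and 301 CPM in other KO and WT cells. The 6 erythroid markers summed to 65.7 CPM and 10.7 CPM, against 280.0 CPM and 91.3 CPM, with Klf1 at 0 in both sets of members. Of the 8 B cell markers not used by the rule, Pax5 and Fcmr were at 0 in both sets of members, and the sums were 99.8 CPM in KO and 331 CPM in WT, against 46.6 CPM and 75.9 CPM. Bank1, a B cell adaptor also known from dendritic cells, made up most of that sum, at 68.2 CPM in KO and 289 CPM in WT. The 10 macrophage markers summed to 224 CPM and 479 CPM in KO and WT members, against 113 CPM and 284 CPM in other cells, led by Adgre1. Basophil and mast cell markers summed to 2.53 CPM and 6.12 CPM, megakaryocyte markers to 12.6 CPM and 5.10 CPM, and migratory dendritic markers to 6.32 CPM and 32.7 CPM in KO and WT members. Of the plasmacytoid dendritic markers 1 of 2 measured was 2-fold higher in each library, and Klk1 was at 0 in both sets of members. Whether such cells have a part in the results was not tested.

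Granule genes ran the other way. All 5 primary granule genes were 2-fold or more lower in members of each library, with median log2 ratios of −2.54 in KO and −2.69 in WT. The share lower over all measured genes was 9.01% of 5936 in KO and 8.3% of 6591 in WT. Elane, encoding neutrophil elastase, stood at 469 CPM in KO members against 2722 CPM in other KO cells, and at 427 CPM in WT members against 3172 CPM in other WT cells. Mpo, encoding myeloperoxidase, stood at 29.7 CPM in KO members against 243 CPM in other KO cells, and at 12.8 CPM in WT members against 206 CPM in other WT cells. Of 10 maturing neutrophil genes 9 were lower in each library, among them S100a9, a calcium-binding alarmin, with ratios of 0.158 in KO and 0.167 in WT. Csf3r, the receptor for granulocyte colony-stimulating factor, was the exception, at 120 CPM and 156 CPM in KO and WT members against 121 CPM and 181 CPM in other cells. Cxcr2, itself a gene of maturing neutrophils, had to be 0 in members, so this direction is partly set by the rule.

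Members also had fewer transcripts of dividing cells. Among genes of G2 and mitosis 13 of 14 measured in KO and 15 of 15 in WT were 2-fold or more lower, and among S phase genes 7 of 13 and 12 of 13. Over all measured genes, 9.01% of 5936 were lower in KO members and 8.3% of 6591 in WT members. Top2a, the topoisomerase of chromosome condensation, stood at 37.9 CPM in KO members against 164 CPM in other KO cells, and at 119 CPM in WT members against 350 CPM in other WT cells. Mki67, a marker of cycling cells, stood at 57.5 CPM against 161 CPM in KO and at 95.4 CPM against 255 CPM in WT. No gene of either list was 2-fold higher in members.

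**Figure D4:**
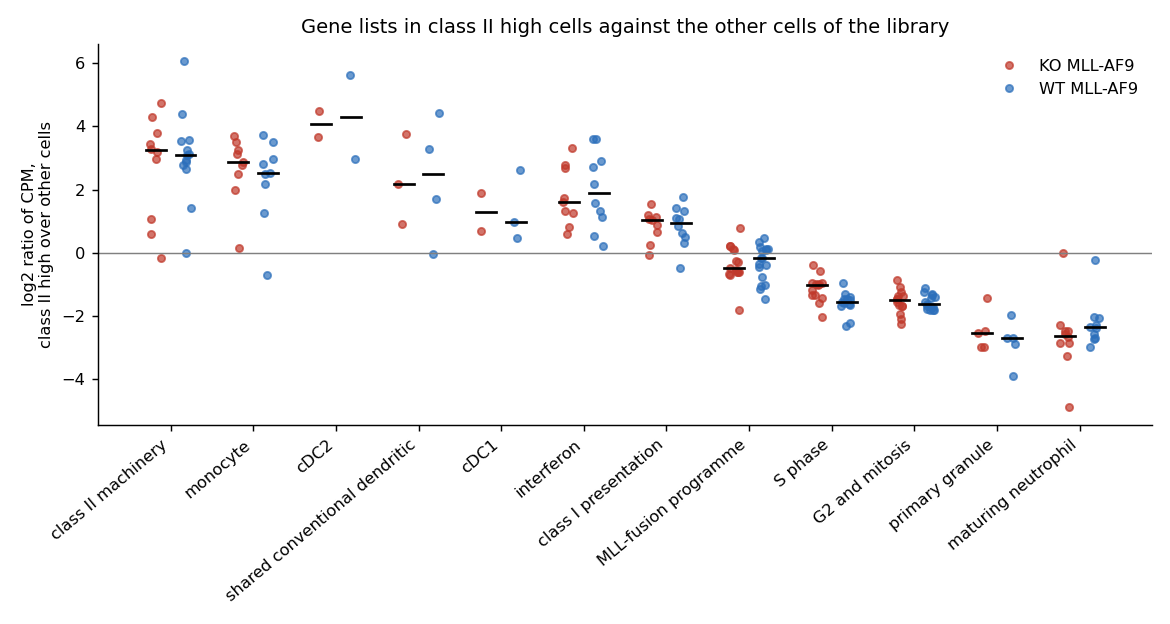
Log2 ratio of CPM in class II high cells over the other cells of the same library for each measured gene of a list (a mean level of at least 20 CPM), in KO and WT MLL-AF9 (points are genes, black bars medians; a log2 ratio of 1 is 2-fold). Most class II machinery, monocyte and cDC2 genes lie above 0 and most cell division and granule genes below 0, in both libraries. The medians of the MLL-fusion programme lie below 0 in both. Among the exceptions, Ly6c2 lies below 0 in WT and Rfxap just below 0 in KO.

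Interferon-response genes were higher in both leukaemias, with 7 of 9 measured genes 2-fold or more up in KO members and 8 of 10 in WT members, and none lower. Among all measured genes 13.4% of 5936 were higher and 9.01% lower in KO members, and 10.5% of 6591 higher and 8.3% lower in WT members. Oasl2, an antiviral protein induced by interferon, stood at 47.4 CPM in KO members against 6.47 CPM in other KO cells, and at 97.5 CPM in WT members against 7.18 CPM in other WT cells. Mx1, an antiviral GTPase, stood at 51.2 CPM and 44.9 CPM in KO and WT members, against 4.28 CPM and 5.17 CPM in other cells. Oasl2 and Mx1 reached the level for counting only through the members, so they had to differ, and the count is partly set by this. The class I presentation genes were higher by less, with 5 of 9 in KO and 5 of 10 in WT past 2-fold. H2-K1, a class I heavy chain, was 2.22-fold (2.11 to 2.33) higher in KO members and 2.53-fold (2.44 to 2.62) in WT members.

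Ranked by the smaller of the 2 log2 ratios, the highest genes outside the rule were largely genes of monocytes and phagocytes. Tmem176b, a membrane protein of dendritic cells and monocytes, stood at 119 CPM in KO members against 5.69 CPM in other KO cells, and at 242 CPM in WT members against 4.82 CPM in other WT cells. The lectins Clec4a3 and Clec4a1 were 17.2-fold and 15.9-fold higher in KO members and 16.6-fold and 15.1-fold higher in WT members. Apoe, the lipid carrier of macrophages, stood at 422 CPM and 528 CPM in KO and WT members, against 36.3 CPM and 48.2 CPM in other cells. Rnf150, Lgmn, Ms4a4c, Slfn5, Ifi27l2a, Ifi207, Zfp36l1 and Cd2ap completed the 12 highest, with ratios of 11.8 to 22.3 in KO and 10.7 to 16.4 in WT. The 12 lowest were the granule and neutrophil genes Mpo, Mmp8, Olfm4, Ctsg, Retnlg, Mrgpra2b, S100a9, Elane, Cstdc4, Ms4a3, S100a8 and Ngp, with ratios of 0.0312 to 0.181 in KO and 0.0619 to 0.198 in WT.

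Class II low monocytic cells, defined after seeing the data by 3 or more UMIs over Csf1r, Ccr2 and F13a1, at most 1 class II UMI and none of the exclusion genes, were the other set compared within each library, with 1385 cells in KO and 2028 in WT. Fewer genes were apart from them than from all other cells: 5.52% of 6124 genes were 2-fold or more higher in KO members and 5.58% lower, and in WT 4.69% of 6637 were higher and 4.82% lower, which is 9.51% either way. Class II machinery was still higher for 8 of 10 genes in KO and 11 of 13 in WT, and primary granule genes were still lower for 5 of 5 in each. In WT, Ciita and H2-DMb2 again reached the level for counting only through the members. Meis1 stood at 290 CPM in KO members against 306 CPM in class II low monocytic cells, and at 457 CPM in WT members against 415 CPM. Flt3 stood at 56.8 CPM against 9.31 CPM in KO and at 210 CPM against 44.6 CPM in WT, and Cd209a at 19.6 CPM against 0.858 CPM in KO and at 162 CPM against 6.52 CPM in WT. Mitotic genes were lower in members for 14 of 14 in KO and 16 of 16 in WT.

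Between the leukaemias, 455 of 6313 genes (7.21%) were 2-fold or more higher in KO members than in WT members and 744 (11.8%) were lower. In the other cells 5.94% of 6177 genes were higher in KO and 9.16% lower. Over all these genes the median log2 ratio came to −0.21 in members and −0.33 in other cells. With median-ratio size factors in place of CPM the median in members was 0.04 and the split turned to 608 higher and 382 lower, so the direction of the whole set hangs on the scaling and single ratios below are read against the median. Meis1 had a log2 ratio of −0.65 in members and −0.56 in other cells, and Hoxa9 of −1.17 and −0.72.

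Immediate early genes, which cells switch on within minutes of stimulation or handling, took most of the highest places, and other cells showed the same. All 17 measured genes of the list were 2-fold or more higher in KO, in members and in other cells alike, with median log2 ratios of 5.08 and 4.82. Setting Fosl1, which had no UMI in WT members, at a floor of 3 UMIs left the median of members at 4.91. Fos stood at 2797 CPM in KO members and 33.7 CPM in WT members, against 1636 CPM in other KO cells and 37.9 CPM in other WT cells. Atf3, a stress-induced transcription factor, stood at 1903 CPM and 31.1 CPM in KO and WT members. Ccl2, a chemokine that binds Ccr2, stood at 657 CPM in KO members and had no UMI in WT members, at least 429-fold higher against the floor of 3 UMIs. Its level in other KO cells was 73.1 CPM. The WT leukaemia was the low library: class II high c-Kit+ cells had Fos at 1817 CPM in KO and 1907 CPM in WT, and 15 of 16 measured genes of the list were 2-fold or more lower in WT members than in WT c-Kit+ cells. Over all 6595 genes of that comparison, 8.98% were lower.

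Genes of this kind took 7 of the 10 highest places of the ranking, Fosb, Dusp1, Fos, Atf3, Egr1 and Jun from the list and Ppp1r15a, a stress-induced phosphatase regulator, beside it; Ccl2, Cxcl2 and Rgs1 were the others. The costimulatory genes Cd83 and Cd86 were also higher in KO members, at 539 CPM and 306 CPM in KO members and 57.7 CPM and 38.3 CPM in WT members. At full depth Klf4, a monocyte transcription factor on the immediate early list, was in 94.1% of KO members and 14.9% of WT members. Their median depths differed, at 7058 UMIs in KO and 4312.5 UMIs in WT. How handling of the libraries bears on these differences was not tested.

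Of 15 measured class II machinery genes, 5 were 2-fold or more lower in KO members (Cd40, Ciita, H2-DMb2, H2-Oa and H2-Ob) and 3 higher (Cd80, Cd83 and Cd86). Over all 6313 genes of this comparison, 11.8% were lower and 7.21% higher, a split whose direction hangs on the scaling. Of the dendritic lists, Flt3 and Itgax of 4 shared genes, Cadm1 of 3 cDC1 genes and Cd209a of 3 cDC2 genes were lower, and Irf4 was higher. Ciita stood at 12.6 CPM in KO members and 141 CPM in WT members, a ratio of 0.0897 (0.0539 to 0.141), while both c-Kit+ libraries were alike, at 91.0 CPM in KO and 96.3 CPM in WT. KO members carried fewer class II UMIs per cell, so the ratio was also taken among cells with 50 or more. There Ciita stood at 24.3 CPM in KO and 194 CPM in WT, and Cd209a at 44.6 CPM in KO and 205 CPM in WT. The loading gene H2-DMb1 did not differ beyond counting error in that class, at 413 CPM (359 to 474) in KO and 402 CPM (367 to 439) in WT.

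Over all members Cd209a stood at 19.6 CPM in KO and 162 CPM in WT, a ratio of 0.121 (0.0806 to 0.175), and Flt3 at 56.8 CPM and 210 CPM, a ratio of 0.271 (0.213 to 0.341). In other cells, at far lower levels, the ratios of Ciita, Cd209a and Flt3 were 0.125, 0.124 and 0.160, so KO was the lower in that set too. That set includes the class II positive cells removed by the exclusion genes, 27 in KO and 126 in WT. In class II low monocytic cells Ciita did not separate, at 0.330 CPM (0.107 to 0.770) in KO and 0.501 CPM (0.217 to 0.988) in WT. These levels rest on 5 and 8 UMIs. The cells were allowed at most 1 class II UMI, so low Ciita can follow from the rule of the set. Cd209a stood there at 0.858 CPM in KO and 6.52 CPM in WT, and Flt3 at 9.31 CPM and 44.6 CPM. Irf4, a factor that cDC2 need, stood at 64.4 CPM in KO and 27.6 CPM in WT. The lectin Clec4b1 stood at 25.9 CPM and 175 CPM, and Ly6a, the interferon-inducible stem cell antigen Sca-1, at 30.9 CPM and 217 CPM. Their ratios in other cells were 0.344 and 0.394, nearer to 1 than the 0.148 and 0.143 in members. Pcdh7, Lncppara, Inpp4b, Auts2, Clec2d and Pbx3 filled the remaining places of the 10 lowest, and all 6 were also 2-fold or more lower in KO among other cells, with ratios of 0.0810 to 0.253.

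**Figure D5:**
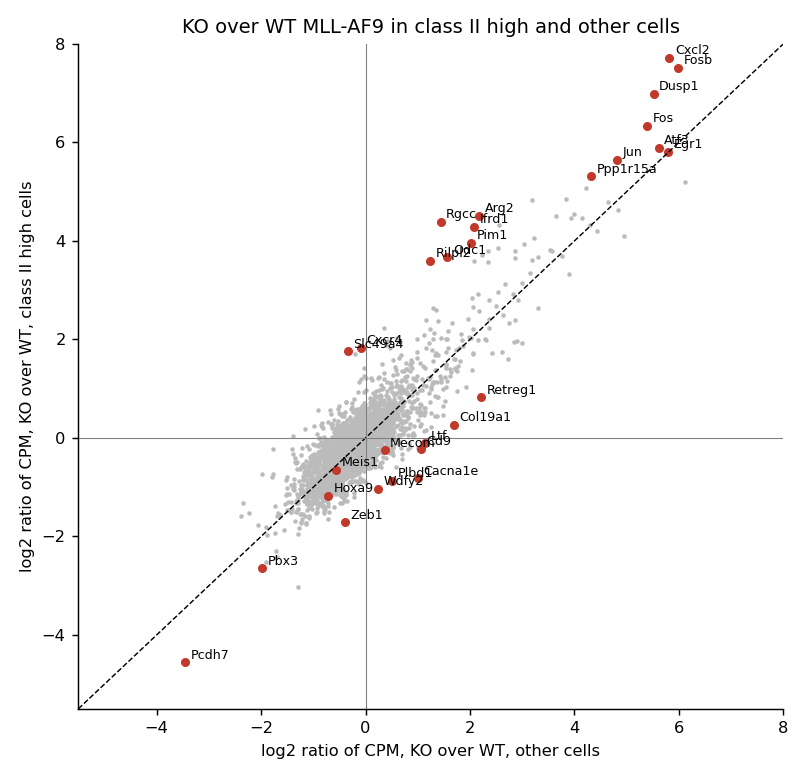
Log2 ratio of CPM, KO over WT MLL-AF9, in class II high cells (vertical) against other cells (horizontal) for 2943 genes whose mean level was at least 50 CPM in both sets; red points are named genes, and the dashed line marks equal ratios. Immediate early genes lie at the upper right near the line, Pbx3 and Pcdh7 at the lower left, and Rgcc, Rilpl2, Arg2, Ifrd1 and Cxcr4 above the line; Ciita, Cd209a and Ccl2 fall under the level in other cells and are not drawn.

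Where the ratio differed most between members and other cells, Rgcc, a cell cycle regulator, stood at 729 CPM in KO members and 33.7 CPM in WT members, but at 467 CPM in other KO cells and 172 CPM in other WT cells. Cxcr4, the chemokine receptor that retains cells in marrow, stood at 540 CPM in KO members and 151 CPM in WT members, and was near level in other cells at 147 CPM and 156 CPM. Rilpl2, Arg2, Ifrd1, Slc49a4, Odc1 and Pim1 completed the 8 genes with the higher ratio in members, with differences of 1.94 to 2.36 on the log2 scale. On the other side Cacna1e, a calcium channel gene, stood at 177 CPM and 313 CPM in KO and WT members and at 180 CPM and 89.7 CPM in other KO and WT cells. Col19a1, Retreg1, Plbd1, Zeb1, Cd9, Wdfy2 and Ltf followed, with differences of −1.42 to −1.24. These differences rest on 1 library per group and were not tested.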

How the data were processed

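The deposited values of the 4 droplet libraries are UMI counts, whole and not normalized. Reads were processed with Cell Ranger 7.1.0 on mm10, per the submitters' processing notes; the gene annotation is not given in the sources used here. Gene positions come from GENCODE (GRCm38).

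A cell was kept if at least 500 genes and 1000 UMIs were seen in it and no more than 10% of its UMIs were mitochondrial. Scrublet in scanpy 1.11.5 marked doublets, which were kept. UMIs were summed over the cells of a set and divided by their sum (CPM), and log2 ratios used a pseudocount of 1 CPM. Intervals are Clopper-Pearson for shares, exact Poisson for levels and exact conditional binomial for ratios (scipy 1.17.1). Shares of cells with a UMI were taken after thinning each cell to 2000 UMIs, unless given as unthinned or at full depth. With 1 library per group no test was run, and genes were counted at 2-fold and a mean of 20 CPM or more.

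Comparison sets were set after seeing the data: B cells needed 3 Cd79a UMIs; T and NK cells fewer than 5 class II UMIs and 3 UMIs over 8 of their genes; erythroid cells fewer than 5 class II UMIs and 10 UMIs over 4 genes. Members and lists were chosen with earlier results of these data known. Named genes were those of the rule and the 23 lists, Meis1, Hoxa9, the 12 highest and lowest genes against other cells, the 10 highest and lowest for KO over WT in members, and the 8 with the largest difference each way, at 50 CPM or more. Mitochondrial, haemoglobin, receptor-segment, Xist, Tsix and Y-linked genes and numbered gene models were not ranked. Alternatives varied the class II minimum, the cell filter, doublets, scaling, pseudocount and level filter.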

Additional observations from a re-analysis of the deposited data

How the results depend on the processing

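The share of cells that are class II high followed its definition. In KO it was 2.56% at a minimum of 3 class II UMIs, 1.11% at 10, 0.577% at 50, 1.23% with 2 or more of the 4 genes required and 0.932% with the rule on thinned cells. In WT it was 3.49%, 2.44% and 1.70% at minimums of 3, 10 and 50, and 3.86% without the exclusion genes. The minimum of 50 was chosen after seeing the data. Without thinning, Meis1 was in 71.2% of KO and 74.9% of WT members and Hoxa9 in 37.1% and 46.1%, and at 50 class II UMIs Meis1 was in 44.8% of thinned KO members. Genes past 2-fold numbered 1332 for KO members over other cells, 1236 for WT members and 1199 for KO over WT members; with no level filter they numbered 3898, 3368 and 4883, and at 50 CPM or more 745, 678 and 609, since more or fewer genes were counted. Median-ratio size factors gave 701 higher and 681 lower for KO members over other cells, against 797 and 535 with CPM. Sizes of ratios shifted more than their signs. Of 258 log2 ratios, 122 left their main counting interval with thinned cells, 111 with equal weight per cell and 109 at a minimum of 3 class II UMIs. At a minimum of 50, 133 moved and 1 reversed, while the stricter cell filter moved 1. The 258 were ratios of chosen genes, those of the rule included, and of genes ranked as most extreme in these data. The level filter settings leave each ratio as it is and a pseudocount cannot change a sign, so those settings could show no reversal. Of 163 log2 ratios past 2-fold, 161 kept their sign in all 14 settings, which was thus partly set in advance. The exceptions, for KO over WT members, were Ctsg at 0.10 with doublets removed and Retnlg at 1.65 at 50 class II UMIs, both below 0 otherwise; the cause was not tested. No paired analysis was possible because each group has 1 library, and no replicate could be left out. Depth limits Hoxa9: at 2000 UMIs its KO share overlaps background.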

Other observations

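Among genes that no comparison above turned on, Gzma, a granule protease of cytotoxic lymphocytes, had 33 UMIs in KO members and none in WT members, at 1.61 CPM in other KO cells and 1.69 CPM in other WT cells. Il7r, the interleukin 7 receptor, stood at 29.0 CPM in KO members and 3.57 CPM in WT members, while it was at 2.14 CPM and 3.10 CPM in other KO and WT cells. Cd163, a haemoglobin scavenger receptor of macrophages, stood at 17.1 CPM in KO members and 70.4 CPM in WT members, against 1.32 CPM and 4.99 CPM in other cells, and at 3.35 CPM in KO class II high c-Kit+ cells with no UMI in the WT ones. These genes were picked after their values were seen.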
